A study of Mus musculus with 16 samples.

Results

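Genes that let brain cells use ketone bodies and fatty acids as fuel were measured in whole-brain RNA from male mice that carry or lack Slc5a8, a sodium-coupled transporter of monocarboxylates that include lactate, pyruvate and ketone bodies. The set holds 33 genes chosen by name: 4 ketone body enzymes, 4 acyl-CoA synthetases, 6 genes of the carnitine shuttle, 7 acyl-CoA dehydrogenase and electron transfer flavoprotein genes, 8 genes of the later steps of beta-oxidation, and 4 regulators and carriers of mitochondria. All 33 had a probe carrying their name among 34821 gene names on the array, and all 33 passed the filter on dim probes, after which 23123 genes were tested. RNA was hybridised to Agilent arrays in 1 colour, 4 arrays in each of 4 groups: wild type at 4 months, Slc5a8-deficient at 4 months, wild type at 18 months and Slc5a8-deficient at 18 months. The labels give C57BL/6J for every group, with the entries for strain and age interchanged. Biological replicates are stated in the series' design text, which gives neither the allele nor the origin of the controls, so p-values refer to the variation among these 16 samples. Levels below are log2 signals relative to the 75th percentile of each array, differences are log2 differences ± SE from limma, and a gene is said to have risen or fallen where its Benjamini-Hochberg adjusted p over all genes was under 0.05.

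Ketone bodies made in the liver enter brain cells through monocarboxylate transporters and are turned into acetyl-CoA in mitochondria by the successive action of a 3-hydroxybutyrate dehydrogenase, a CoA transferase and a thiolase. Fatty acids are first activated by acyl-CoA synthetases, pass into mitochondria as carnitine esters, and are shortened step by step by dehydrogenases, hydratases and thiolases. The brain is known to burn ketone bodies readily during fasting and suckling and fatty acids only sparingly, mostly in astrocytes.

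The probe of Slc5a8 itself, at position 4958 of the transcript, was well above background on 0 of the 16 arrays, with levels from -7.9 to -6.34 in all groups, and so checks nothing about the genotype labels. All deficient arrays lay on slide 1 and all wild-type arrays on slide 2, so genotype and slide cannot be told apart. Young deficient and old wild-type arrays lay in row 1 of their slides, old deficient and young wild-type arrays in row 2. Age within 1 genotype, genotype at 1 age and the age by genotype interaction therefore cannot be told apart from the row either. The averaged age difference is balanced over the rows. The 75th percentile of the signal ran from 626 (young deficient array 1) to 1348 (young wild-type array 2) over the arrays.

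Array 1 of the young deficient group stood apart from the other 15. It lay at 117 on the first principal component of the probes kept, which held 28.7% of the variance, followed by old wild-type array 2 at 31 and young wild-type array 4 at 29.1. It held the highest or lowest value of its group for 30 of the 33 genes (90.9%, against 84.4% of all genes), and 10 of the 33 lay more than 0.5 from the mean of the other 3 arrays. The direction followed the base composition of the probe. Over the 33 genes, the deviation from each gene's mean over all arrays had a Pearson correlation with the G+C content of the 60-base probe of 0.87 on that array, of 0.64 on old wild-type array 2, of 0.55 on young wild-type array 4 and of -0.79 on young wild-type array 2. Over all 23123 genes the same correlations were 0.57, 0.35, 0.4 and -0.39. In 2393 transcripts with probes at least 500 bases apart, upstream minus downstream signal was taken relative to its mean over the arrays. Its median was highest on young deficient array 1 (0.18) and lowest on young wild-type array 2 (-0.15). It was 0.099 on young wild-type array 4, 0.079 on old wild-type array 3 and 0.054 on old wild-type array 2. Base composition and probe position were not told apart. The points of 1 array share its labelling, hybridisation and wash, and these are descriptions without a test.

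The first 30 bases of 6 probes are printed to show the G+C-rich end of this range and the probes of the 2 genes whose differences were called. Capitals mark G and C, sequences run 5′ to 3′, the percentage is the G+C content of the whole probe, and coordinates of the 30 bases are those of the scanner files (NCBI37/mm9).
Hadha probe (55% G+C, minus strand of chr5:30446245-30446274): GGaaGCaGGaaaaaGaCCaaGGCtaGCCtt
Crat probe (55% G+C, minus strand of chr2:30265509-30265538): taCtCCaGCCCaGGaGtGatCCtGCCCaaG
Ucp2 probe (55% G+C, plus strand of chr7:107647809-107647838): CtCaaaaGaGCCCtaatGGCtGCCtaCCaa
Etfb probe (53.3% G+C, plus strand of chr7:50713092-50713121): GGaGGtGGGGCGGatCtGaGaCCCtCCCtG
Bdh2 probe (35% G+C, plus strand of chr3:134967309-134967338): GaGtGtGaCtCtttaataGtCtCtCGtCtC
Ppara probe (40% G+C, plus strand of chr15:85632110-85632139): CtttGaaaaCCtaCaaGtCaaGGtGtGGCC

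On young deficient array 1 the 6 genes whose probes held at least 50% G+C all lay above their mean over the 16 arrays, Hadha by 1.25, Ucp2 by 1.12, Crat by 0.77, Acadvl by 0.63, Etfb by 0.55 and Acads by 0.50. The probes poorest in G+C gave the opposite. Acsl3 lay 0.66 below its mean (-0.66) and Bdh2 0.64 below (-0.64) on that array. Ppara, with a probe near the median of the 33 genes (41.7%), lay at -0.057. The 6 genes with G+C-rich probes belong to several steps: dehydrogenases, a flavoprotein subunit, the trifunctional protein, an acetyltransferase and an uncoupling protein.

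**Figure D1:**
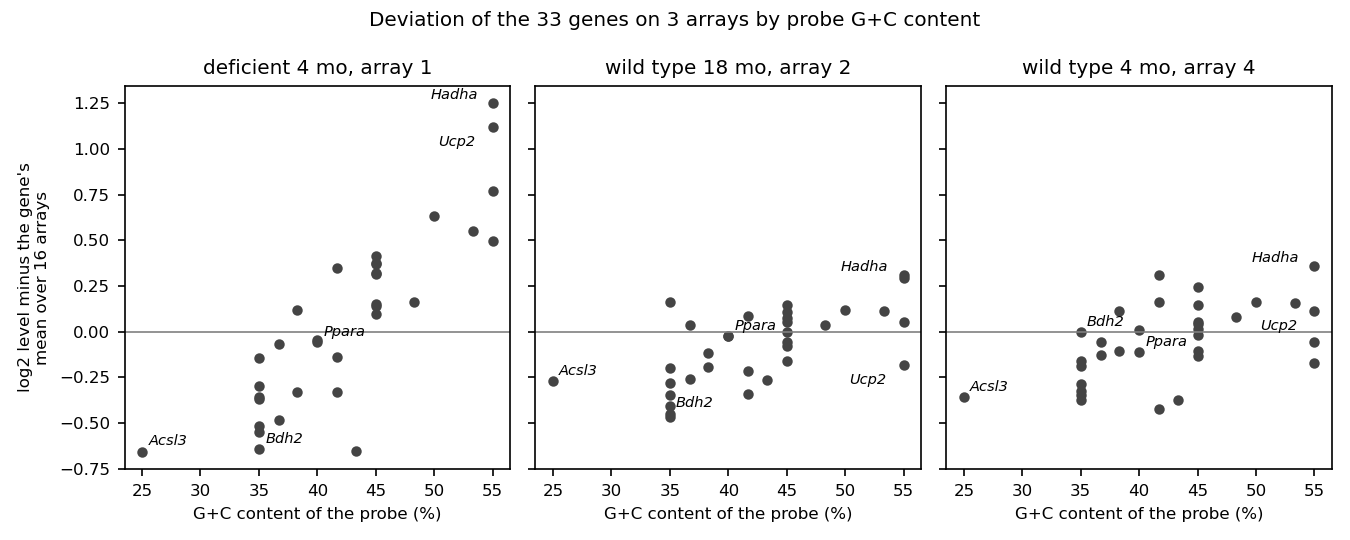
Deviation of each of the 33 genes (points) from its own mean over 16 arrays, in log2 units, against the G+C content of its probe in percent, on young deficient array 1, old wild-type array 2 and young wild-type array 4. Points rise from left to right in each panel, from Acsl3 (25% G+C) to Hadha (55% G+C, 1.25 above its mean on young deficient array 1).

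Few of the genes differed between the groups. Between deficient and wild-type mice at 4 months 0 of the 33 passed limma's test (5 at an unadjusted p under 0.05), against 1.55% of all genes, and at 18 months 0 (1 unadjusted), against 1.47%. Between 18 and 4 months 0 passed in wild type (2 unadjusted), against 0.424%, and 1 in deficient mice, Bdh2 (5 unadjusted), against 2.39%. The age by genotype interaction gave 0 (2 unadjusted), against 0.19%. The difference between genotypes averaged over both ages gave 0 (3 unadjusted), against 3.17%, and the age difference averaged over both genotypes gave 1, Ppara (4 unadjusted), against 1.61%. A count of 1 in 33 is 3.03%, close to the share of all genes in the comparisons that had one. The median difference of the 33 genes was 0.085 between genotypes at 4 months, with 23 of 33 above 0 and a median over all genes of 0.022. In the other comparisons it lay between -0.073 (interaction) and 0.051 (averaged genotype difference), where the medians of all genes were -0.0101 and 0.0186.

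Separation of all 4 arrays of a group from all 4 of another was seen for 3 of the 33 genes between genotypes at 4 months (Crat higher in deficient mice, Bdh2 and Cpt1b lower), where 9.45% of all genes separated. At 18 months it was seen for 2 (Bdh2 higher, Oxct1 lower) against 8.1%. Between ages it was seen for 0 in wild type against 3.51%, and for 5 in deficient mice (Bdh2, Ppara and Ppargc1a higher at 18 months, Hadha and Ucp2 lower) against 17.9%.

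**Figure D2:**
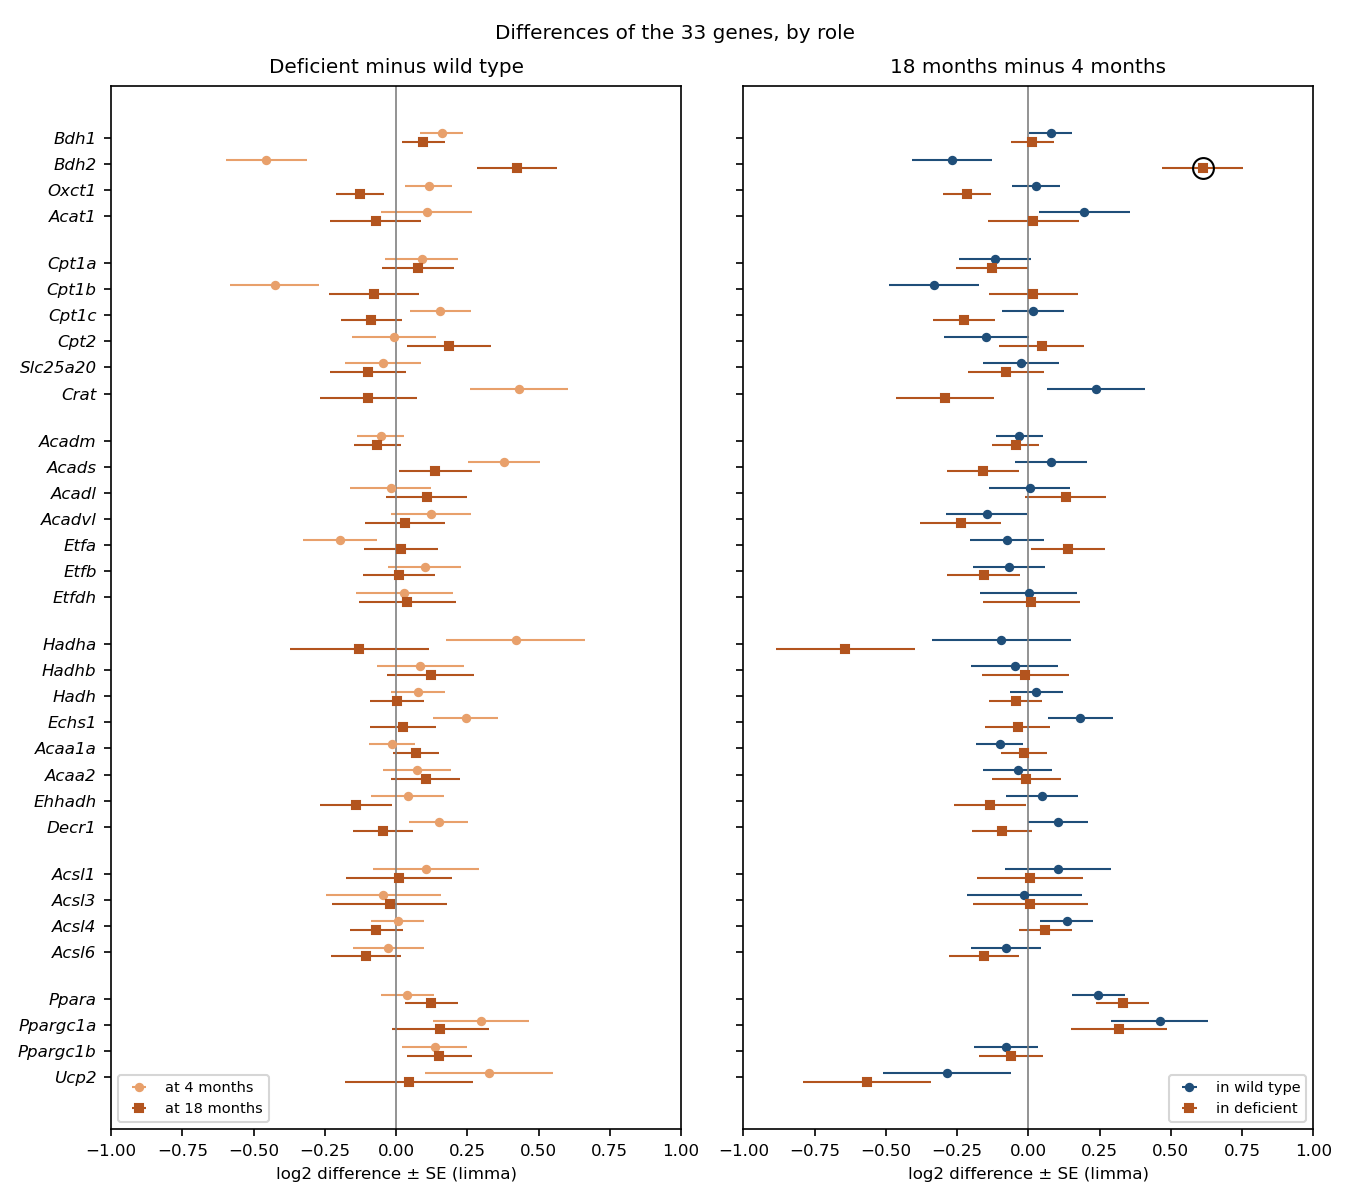
Log2 differences (points) ± SE from limma for the 33 genes, grouped by role from ketone body enzymes at the top to regulators at the bottom, between genotypes at each age (left) and between ages in each genotype (right). The circled Bdh2 difference of 0.61 between ages in deficient mice is the single one of these 4 comparisons with an adjusted p under 0.05.

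Among the ketone body enzymes, Bdh2 rose with age in deficient brains. Bdh2 is a short-chain dehydrogenase that oxidises 3-hydroxybutyrate in the cytosol and has also been tied to siderophore synthesis. Its levels on the 4 young deficient arrays were -0.34, 0.0105, 0.19 and 0.11, and on the 4 old deficient arrays 0.54, 0.69, 0.55 and 0.64. Every old deficient array lay above every young one, by 0.61 ± 0.14 in the mean (1.53-fold, 95% interval 0.31 to 0.91, adjusted p = 0.038). In whole-tissue RNA a change in the number of cells of a type and a change in RNA per cell cannot be told apart. The ages also lay in different rows of the slide.

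In wild-type brains the age difference of Bdh2 had the opposite sign. The young wild-type arrays read 0.72, 0.33, 0.44 and 0.31, and the old ones 0.27, -0.14, 0.46 and 0.15, which overlap, with a difference of -0.27 ± 0.14 (adjusted p = 0.90). Deficient brains thus lay below wild type at 4 months (-0.46 ± 0.14, adjusted p = 0.12) and above it at 18 months (0.42 ± 0.14, adjusted p = 0.22), without overlap of arrays at either age. The test of the difference between those differences gave 0.88 ± 0.20, with an unadjusted p of 0.00053 and an adjusted p of 0.13. The old deficient and young wild-type arrays, with the higher means, lay in row 2 of their slides and the others in row 1. None of these differences can therefore be told apart from the row. The lowest of the young deficient values is that of array 1, on which probes poor in G+C read low. After subtracting, on each array, the median deviation of genes whose probes hold the same number of G and C bases, a correction chosen after the data had been seen, the age difference in deficient mice was 0.50 (adjusted p = 0.018) and the interaction 0.77 (adjusted p = 0.042). Without young deficient array 1 the interaction was 0.77 too, with an adjusted p of 0.135, and its adjusted p was under 0.05 in 2 of 10 other settings, over which it ran from 0.0103 to 0.276.

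Bdh1, the mitochondrial 3-hydroxybutyrate dehydrogenase, had the smallest p of the ketone body enzymes for the averaged genotype difference. It read 3.40, 3.63, 3.57 and 3.53 in young wild type, 3.73, 3.67, 3.61 and 3.75 in young deficient, 3.56, 3.58, 3.59 and 3.71 in old wild type and 3.69, 3.68, 3.71 and 3.74 in old deficient brains. The arrays of the 2 genotypes overlap at each age, and the difference of 0.13 ± 0.054 did not pass (adjusted p = 0.26). Of its 3 probes, the others gave 0.086 and 0.00031 for the same difference, and the dimmest, at position 2324 of the transcript, -0.33 ± 0.096 for the averaged age difference, where the brightest gave 0.046. Oxct1, the CoA transferase that commits ketone bodies to oxidation, read 4.99, 4.97, 5.09 and 5.10 in old deficient brains and 5.26, 5.13, 5.13 and 5.14 in old wild type. The 4 old deficient arrays lay below the 4 old wild-type arrays by a narrow margin, with a mean difference of -0.13 ± 0.083 (adjusted p = 0.74), and its age difference in deficient mice was -0.21 ± 0.083 (adjusted p = 0.17). With the correction for probe G+C content that age difference was -0.27 with an adjusted p of 0.029. Without young deficient array 1 it was -0.27 as well with an adjusted p of 0.106, and without the 3 arrays highest on the first principal component the adjusted p was 0.0773. Acat1, the thiolase of the last step, differed by between -0.18 (interaction) and 0.20 (age in wild type) with no adjusted p under 0.05. Its interaction was -0.35 without young deficient array 1 and its genotype difference at 4 months 0.28, where all arrays gave 0.107.

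**Figure D3:**
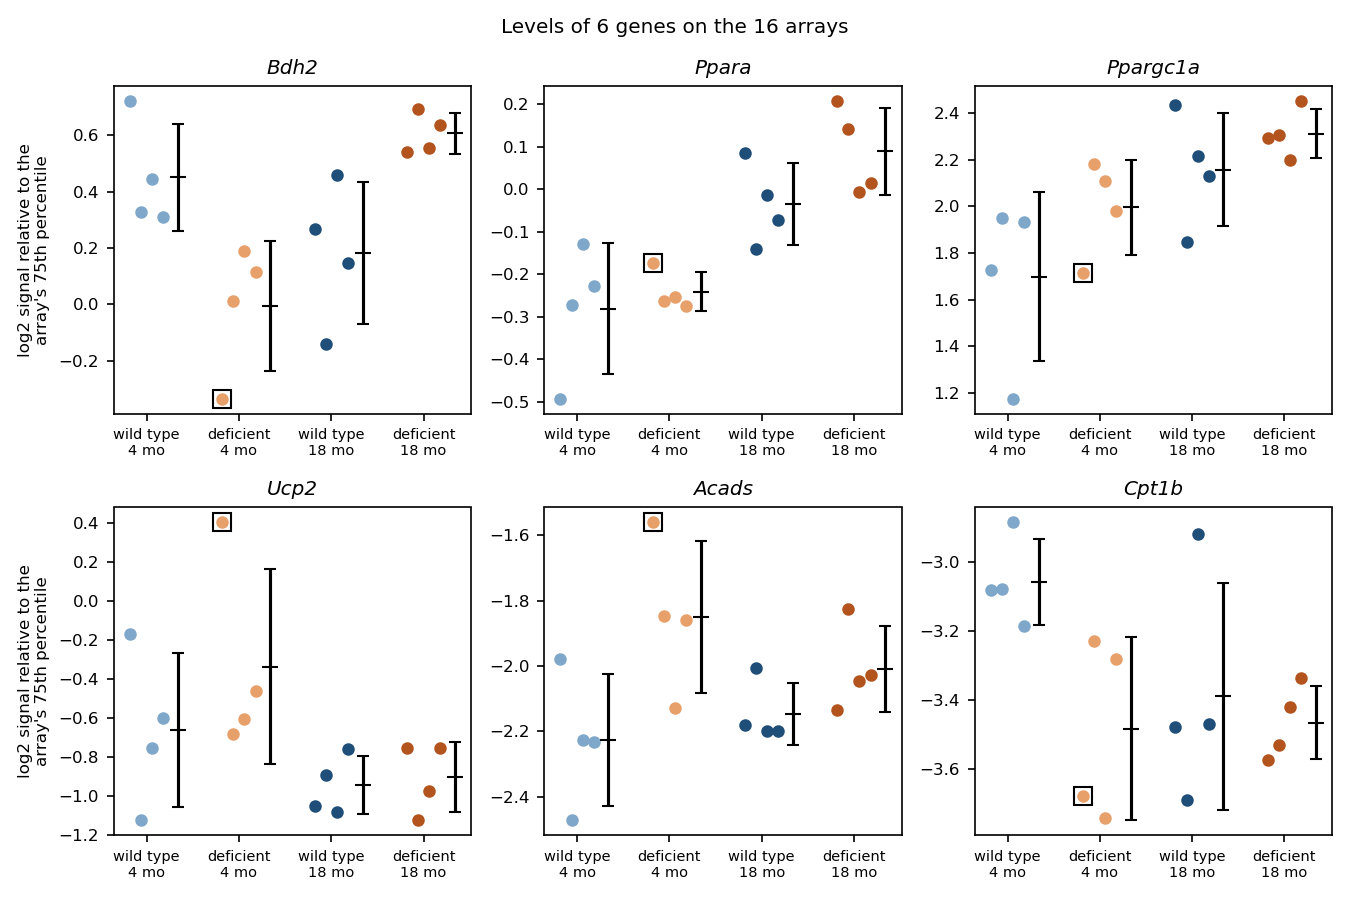
Levels of Bdh2, Ppara, Ppargc1a, Ucp2, Acads and Cpt1b on each array (points, log2 signal relative to the array's 75th percentile, separate scales) in the 4 groups, with the mean and SD of 4 arrays in black and young deficient array 1 in a square. The 4 old deficient arrays of Bdh2 (0.54 to 0.69) lie above the 4 young deficient arrays (-0.34 to 0.19), and Ppara is higher at 18 than at 4 months in both genotypes.

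Of the acyl-CoA synthetases, which activate long-chain fatty acids, 0 of 4 passed the test in any comparison. Of all genes 0.19% to 3.17% did. In comparisons with young deficient mice the differences of Acsl1, Acsl3 and Acsl6 depended on 1 array. Acsl1, Acsl3, Acsl4 and Acsl6 differed by between -0.16 and 0.13 over the 7 comparisons, the widest being -0.16 ± 0.12 for Acsl6 between ages in deficient mice. Acsl6, the synthetase most typical of neurons, also had the smallest p of the 4 between genotypes at 18 months (-0.104 ± 0.12) and over both ages (-0.066 ± 0.087). Acsl4, which prefers arachidonic acid, led the age difference in wild type (0.13 ± 0.093) and over both genotypes (0.097 ± 0.066), and Acsl1 the genotype difference at 4 months (0.11 ± 0.19). The SE of Acsl3 (0.20) and Acsl1 (0.19) for a difference between 2 groups was wider than that of Acsl4 (0.093), and both read lowest of their group on young deficient array 1. Without that array the genotype difference at 4 months was 0.33 for Acsl1 (adjusted p = 0.21) and 0.17 for Acsl3, and the age difference in deficient mice was -0.22 for Acsl1, -0.205 for Acsl3 and -0.056 for Acsl6.

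In the carnitine shuttle, Cpt1b and Crat were the genes with the smallest p. Cpt1b, the muscle form of carnitine palmitoyltransferase of the outer mitochondrial membrane, read -3.08, -3.08, -2.88 and -3.19 in young wild-type brains and -3.68, -3.23, -3.75 and -3.28 in young deficient brains. Every young deficient array lay below every young wild-type array, by -0.43 ± 0.16 in the mean (adjusted p = 0.18). At 18 months the wild type read -3.48, -3.69, -2.92 and -3.47 and the deficient -3.58, -3.53, -3.42 and -3.34. These arrays overlap, and the difference was -0.0765 ± 0.16. Averaged over both ages it was -0.25 ± 0.11 (adjusted p = 0.29), and its second probe gave -0.077. In wild type the age difference of Cpt1b was -0.33 ± 0.16 (adjusted p = 0.81).

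Crat, the carnitine acetyltransferase that buffers acetyl-CoA, read -3.01, -3.29, -3.18 and -2.97 in young wild-type and -2.14, -2.83, -2.82 and -2.93 in young deficient brains. The young deficient arrays were all higher, by 0.43 ± 0.17 (adjusted p = 0.21), with array 1 well above the other 3. Without that array the difference was 0.25, and with the correction for probe G+C content 0.23. Its interaction was -0.53 ± 0.24 (unadjusted p = 0.046, adjusted p = 0.46). Cpt1c, the neuronal form with little transferase activity, differed by -0.23 ± 0.11 between ages in deficient mice (adjusted p = 0.25), and by -0.13 without young deficient array 1. Cpt2, the inner membrane transferase, differed by 0.19 ± 0.15 between genotypes at 18 months, and its dimmer second probe by -0.89. Cpt1a, the liver form present in astrocytes, and the carnitine-acylcarnitine carrier Slc25a20 differed by between -0.13 and 0.089 over the 7 comparisons. Averaged over both genotypes, all 6 shuttle genes read lower at 18 months, by between -0.16 (Cpt1b) and -0.027 (Crat), and none of the 6 passed the test. The sign of Crat turned without young deficient array 1 (0.063) and with the G+C correction (0.094), and the other 5 stayed below 0 in both. Without the 3 arrays highest on the first principal component, Crat (0.044) and Slc25a20 (0.0079) read above 0 and the others below.

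The acyl-CoA dehydrogenases carry out the first oxidation of each cycle, each for a range of chain lengths, and hand electrons to the flavoprotein of Etfa and Etfb and on to the respiratory chain through Etfdh. Acads, the short-chain dehydrogenase, had the smallest p of all 33 genes for the averaged genotype difference. It read -1.98, -2.47, -2.23 and -2.23 in young wild type, -1.56, -1.85, -2.13 and -1.86 in young deficient, -2.18, -2.01, -2.20 and -2.20 in old wild type and -2.14, -1.83, -2.05 and -2.03 in old deficient brains. The highest young wild-type array lay within the young deficient range, and the genotypes overlapped at 18 months too. Its difference was 0.38 ± 0.13 at 4 months (adjusted p = 0.15), 0.14 ± 0.13 at 18 months (adjusted p = 0.87) and 0.26 ± 0.090 over both ages (adjusted p = 0.16). With the correction for probe G+C content the difference at 4 months was 0.18.

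Acadvl, the very-long-chain dehydrogenase, had the smallest p of this group for age, with differences of -0.15 ± 0.14 in wild type, -0.24 ± 0.14 in deficient mice and -0.19 ± 0.10 over both genotypes (adjusted p = 0.39). Without young deficient array 1 the last of these was -0.113 and that in deficient mice -0.080. Acadm and Acadl, the medium- and long-chain enzymes, Etfa, Etfb and Etfdh differed by between -0.20 and 0.21 over the 7 comparisons, and both ends belong to Etfa, at -0.20 ± 0.13 between genotypes at 4 months and 0.21 ± 0.18 for the interaction. Without young deficient array 1 these were -0.072 and 0.088. Etfdh differed by at most 0.039, with an SE of 0.17 between 2 groups, but without that array, on which it read far below the other 3, by 0.22 between genotypes at 4 months and by -0.18 between ages in deficient mice.

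The later steps are the hydration, second oxidation and thiolysis of the acyl chain. Hadha, the alpha subunit of the mitochondrial trifunctional protein, which holds the hydratase and dehydrogenase activities for long chains, read 1.33, 0.21, 0.13 and 0.24 in young deficient brains and -0.17, -0.24, -0.14 and -0.11 in old deficient brains. All old arrays lay below all young ones, by -0.64 ± 0.24 in the mean (adjusted p = 0.16), and young deficient array 1 stood far above the other 3. Without it the difference was -0.36, and with the correction for probe G+C content -0.40 (adjusted p = 0.056). In wild type Hadha read 0.23, -0.33, -0.11 and 0.44 at 4 months and -0.12, 0.39, -0.36 and -0.06 at 18 months, a difference of -0.095 ± 0.24, and averaged over both genotypes it differed by -0.37 ± 0.17 (adjusted p = 0.34). Hadhb, the beta subunit with the thiolase activity, which acts in the same complex, differed by -0.011 ± 0.15 between ages in deficient mice (-0.149 without the same array) and by -0.047 ± 0.15 in wild type.

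Echs1, the short-chain hydratase, was the gene of this group with the smallest p between genotypes at 4 months, at 0.24 ± 0.11 (adjusted p = 0.29), and over both ages (0.13 ± 0.081). It also led the age difference in wild type (0.18 ± 0.11). Ehhadh, the peroxisomal bifunctional enzyme, had the smallest p at 18 months (-0.14 ± 0.13). In deficient mice all 8 genes of these steps read lower at 18 than at 4 months, from -0.64 (Hadha) to -0.0070 (Acaa2), with a median of -0.041 and 0 of 8 past the test. That shared sign rested on young deficient array 1: without it Acaa1a (0.031) and Acaa2 (0.082) read higher at 18 months, and with the G+C correction they did too (0.16 and 0.052). In wild type 4 of the 8 were higher and 4 lower.

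Of the regulators, Ppara rose with age. Ppara is the fatty acid receptor that drives transcription of oxidation and ketogenic genes in fasting. Its levels were -0.49, -0.27, -0.13 and -0.23 in young wild type, -0.17, -0.26, -0.25 and -0.28 in young deficient, 0.086, -0.14, -0.012 and -0.071 in old wild type and 0.21, 0.14, -0.0070 and 0.015 in old deficient brains. The ages did not overlap in deficient mice, and in wild type only the lowest old array fell below the highest young one. Averaged over both genotypes the rise was 0.29 ± 0.065 (1.22-fold, adjusted p = 0.038). It was 0.25 ± 0.092 in wild type (adjusted p = 0.57) and 0.33 ± 0.092 in deficient mice (adjusted p = 0.071), and the interaction was 0.085 ± 0.13 (adjusted p = 0.83). Of the 2 other probes of Ppara, both dimmer, the one at position 7356 of the transcript gave 0.31 and the one at position 2697 gave 0.040 for the averaged age difference. With the mean of the 3 probes the rise was 0.21 and its adjusted p 0.062.

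Ppargc1a, the coactivator of mitochondrial biogenesis that works with Ppara, also read higher at 18 months but did not pass the test. It read 1.73, 1.95, 1.17 and 1.94 in young wild type, 1.71, 2.18, 2.11 and 1.98 in young deficient, 2.44, 1.85, 2.22 and 2.13 in old wild type and 2.30, 2.31, 2.20 and 2.45 in old deficient brains. Old deficient arrays all lay above young ones, the wild-type ages overlapped, and the averaged age difference was 0.39 ± 0.12 (adjusted p = 0.13). Within wild type it was 0.46 ± 0.17 (adjusted p = 0.54). Its second probe gave 0.25. Young wild-type array 3, at 1.17, was the lowest of all 16. Between genotypes Ppargc1a differed by 0.30 ± 0.17 at 4 months and by 0.23 ± 0.12 over both ages (adjusted p = 0.40). Ppargc1b, the related coactivator, differed by between -0.078 and 0.15 over the 7 comparisons.

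Ucp2, a mitochondrial carrier of the uncoupling protein family, had the third smallest p for the averaged age difference. It read -0.17, -1.12, -0.75 and -0.60 in young wild type, 0.40, -0.68, -0.60 and -0.46 in young deficient, -1.05, -0.89, -1.08 and -0.76 in old wild type and -0.75, -1.12, -0.97 and -0.76 in old deficient brains. The old deficient arrays lay below all young deficient ones, and wild-type ages overlapped. The differences were -0.57 ± 0.23 in deficient mice (adjusted p = 0.18), -0.29 ± 0.23 in wild type and -0.43 ± 0.16 averaged (adjusted p = 0.22). Without young deficient array 1, the highest of all 16, the difference in deficient mice was -0.32, and with the correction for probe G+C content it was -0.32 too. Ucp2 also had the smallest p of the regulators for the interaction (-0.28 ± 0.32).

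The smallest p of the remaining roles for the interaction belonged to Acads (-0.24 ± 0.18), Hadha (-0.55 ± 0.34) and Acsl4 (-0.075 ± 0.13). At 18 months the regulator with the smallest p between genotypes was Ppara (0.12 ± 0.092).

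Around these 33 genes, 106 others of ketone body synthesis, fatty acid transport, mitochondrial and peroxisomal oxidation and their regulation were listed, and 102 were measured. In the comparisons of genotype, 1 gene was higher and 1 lower at 4 months, against 1.55% of all genes called. At 18 months 0 were higher and 1 lower against 1.47%, and over both ages 1 was higher and 1 lower against 3.17%. In those of age, 0 differed in wild type against 0.424%. In deficient mice 2 were higher and 2 lower against 2.39%, and over both genotypes 1 was higher and 2 lower against 1.61%. The interaction gave 0 against 0.19%. Whether these counts differ from the shares of all genes was not tested. The median difference of the 102 genes lay between -0.0114 and 0.049 over the 7 comparisons.

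Decr2, a reductase that lets peroxisomes handle unsaturated fatty acids, was higher in deficient mice at 4 months (0.82 ± 0.18, adjusted p = 0.035) and over both ages (0.79 ± 0.13, adjusted p = 0.0026), while its mitochondrial counterpart Decr1 differed by 0.15 ± 0.10 at 4 months. Pprc1, a coactivator related to Ppargc1a, was lower in deficient mice at 4 months (-0.38 ± 0.085, adjusted p = 0.042) and over both ages (-0.24 ± 0.060, adjusted p = 0.046), and rose with age in them (0.36 ± 0.085, adjusted p = 0.043). Pdk4, a kinase that shuts off pyruvate oxidation and a classical target of Ppara, rose with age in deficient mice (0.60 ± 0.099, adjusted p = 0.0073) and over both genotypes (0.40 ± 0.070, adjusted p = 0.0082). Angptl4, a lipase inhibitor that is also a target of this receptor, fell with age in deficient mice (-1.37 ± 0.23, adjusted p = 0.0075) and over both genotypes (-0.97 ± 0.16, adjusted p = 0.0057). Fabp7, the fatty acid binding protein of glia and progenitors, fell with age in deficient mice (-1.78 ± 0.19, adjusted p = 0.00082) and over both genotypes (-1.35 ± 0.13, adjusted p = 8.0e-05), and was lower in deficient mice at 18 months (-0.81 ± 0.19, adjusted p = 0.049). The age differences of Pdk4, Angptl4 and Fabp7 in deficient mice and over both genotypes, and the averaged genotype difference of Decr2, kept an adjusted p under 0.05 without any 1 of the 16 arrays. The other calls did not: they held without 9 of the 16 for Decr2 at 4 months, 3 for Fabp7 at 18 months, and 4 (4 months), 2 (both ages) and 6 (age) for Pprc1. Under other processing settings, the age differences in deficient mice of Angptl4 and Pdk4 each kept the call in 10 of 11, with adjusted p of up to 0.0632 and 0.0592. Decr2 at 4 months was called in 8 of 11 and Fabp7 at 18 months in 6 of 11. Pprc1 was called in 4 of 11 at 4 months, 3 of 10 over both ages and 4 of 11 for age.

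All 7 genes of ketone body synthesis outside the 33 were measured and 0 passed the test in any comparison.

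Markers of other cell types and of neighbouring tissues moved with the groups. The median level of 5 measured blood genes, each taken relative to its mean over all arrays, ran from -2.53 to -0.125 on the old deficient arrays. It ran from 0.049 to 0.78 in old wild type, from -0.019 to 1.92 in young deficient and from 0.36 to 0.86 in young wild type. In deficient mice 4 of the 5 fell with age. Between genotypes at 18 months 3 of the 5 were called lower in deficient mice (median difference -1.99). For 9 homeobox genes of the spinal cord and caudal hindbrain the ranges were -1.09 to 0.90 in old deficient and -3.75 to -1.06 in old wild type. They were 1.02 to 3.24 for young deficient and -0.57 to 1.82 for young wild type. Over both genotypes 8 of the 9 fell with age. All 9 read higher in deficient mice at 4 months (median 1.58) and at 18 months (2.02). Called higher there were 0 at 4 months, 3 at 18 months and 4 over both ages. The 6 measured pituitary genes had group medians of 2.11 in young wild type, 0.143 in young deficient, -1.56 in old wild type and -1.77 in old deficient brains, with a median averaged age difference of -3.08, 0 of 6 above 0 and 1 called lower. For choroid plexus the median averaged age difference was -0.455 (0 of 10 called), and for oligodendrocytes -0.223 (0 of 10 called), with -0.271 between ages in deficient mice (1 called higher and 1 lower). The part of these lists in the differences of Bdh2, with age in deficient mice, and of Ppara, with age, was not tested. Markers of astrocytes, the brain cells best known for fatty acid oxidation, had group medians between -0.097 and 0.14, and those of neurons between -0.079 and 0.103. The median astrocyte difference between genotypes at 4 months was 0.178 (7 of 10 above 0, 0 called). Between ages in deficient mice it was -0.128 (1 called higher and 1 lower). There every old deficient array (up to 0.0124) lay below every young deficient array (from 0.0299). For genotype at 18 months and for the interaction 1 of 10 was called higher in each. The part of astrocytes in the differences of the 33 genes was not tested. For microglia the group medians were 0.24 in old wild type and between -0.087 and -0.054 in the other 3 groups. All 10 age differences in wild type were above 0, with 0 past the test. Between genotypes 0 of 10 were above 0 at 18 months (median -0.265, 1 called lower) and over both ages (-0.0857, 1 called lower). The muscle and brown fat list, to which Cpt1b as a muscle form is akin, had group medians of 0.32 for young deficient arrays and -0.17 for young wild type. Its young deficient arrays ran from -0.062 to 0.74, with array 1 the highest. The median genotype difference of this list at 4 months was 0.522 (7 of 8 above 0, 1 called higher). Cpt1b itself read lower in young deficient mice. The part of this list in the Cpt1b difference at 4 months was not tested.

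The calls of Bdh2 and Ppara sat near the threshold. For Bdh2 between ages in deficient mice the adjusted p was 0.087 with no filter on dim probes, 0.071 with the replicate number as a block and 0.076 with only the 2 groups compared in the fit. It stayed under 0.05 without 7 of the 16 arrays and passed above it without the other 9, which are the 4 old deficient arrays, young deficient arrays 1, 2 and 4, old wild-type array 1 and young wild-type array 3, with the difference between 0.50 and 0.68. For Ppara averaged over genotypes the adjusted p was 0.056 with normexp background correction, 0.089 with no filter and 0.090 with the replicate block. It stayed under 0.05 only without old deficient array 3, young deficient array 1, old wild-type array 2 or young wild-type array 3, and passed above it without any of the other 12 arrays, with the rise between 0.25 and 0.31. Left out together, the 3 arrays highest on the first principal component gave a Bdh2 difference of 0.50 and a Ppara rise of 0.33, each with an adjusted p of 0.0325.

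**Figure D4:**
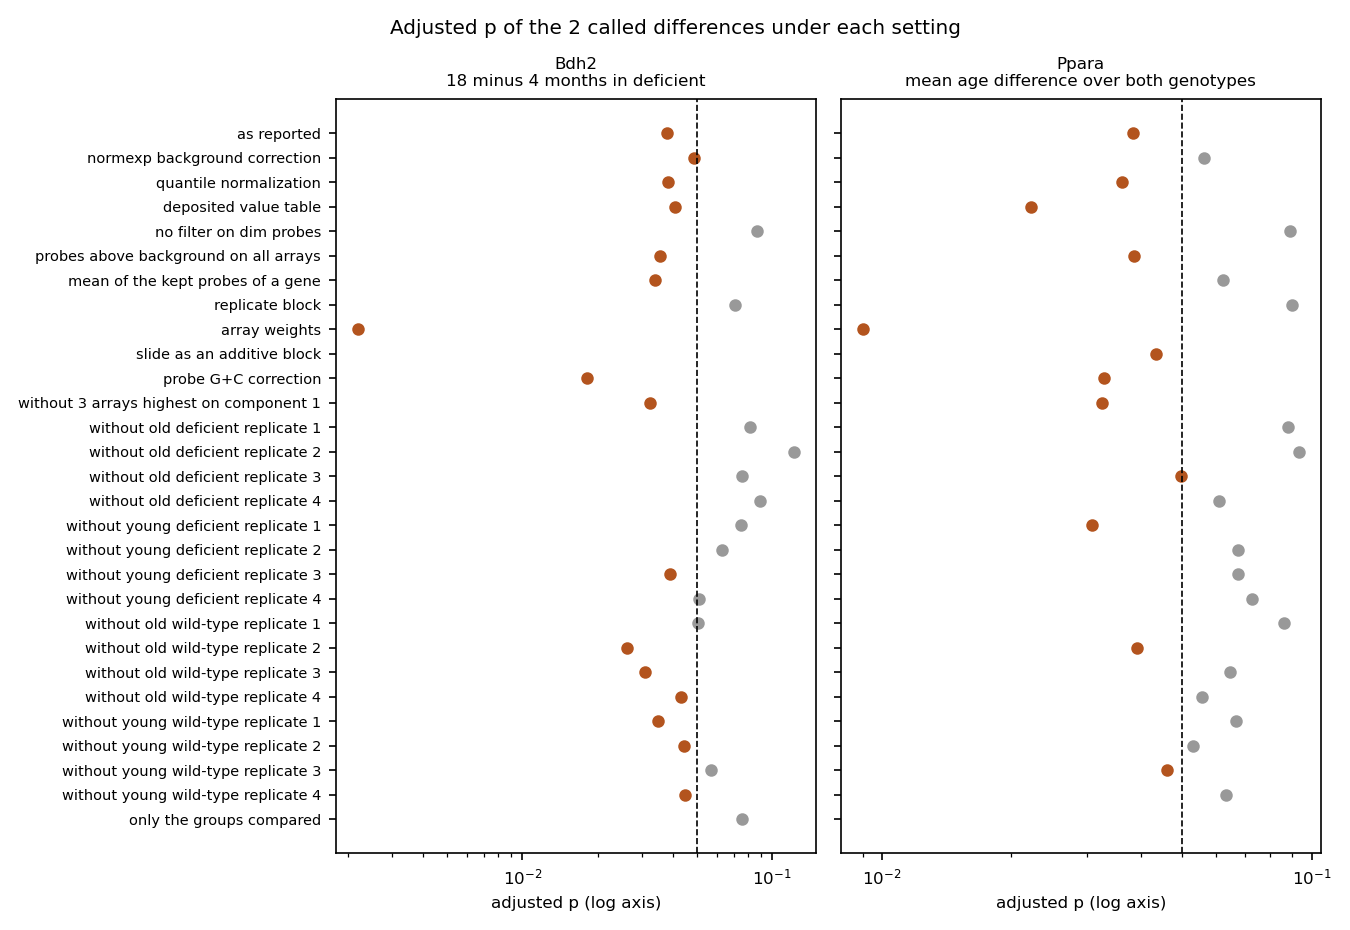
Benjamini-Hochberg adjusted p (log axis) of the Bdh2 difference between ages in deficient mice (left) and of the Ppara difference between ages over both genotypes (right) as reported and under each other setting. Coloured points lie under 0.05 (dashed line) and grey points above it, and the points run from 0.0022 to 0.12 for Bdh2 and from 0.0090 to 0.093 for Ppara.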

How the data were processed

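Per the file headers, spot intensities were read by Feature Extraction 10.7.3.1, which gives a background-subtracted processed intensity. The deposited value table reads as log2 values (array medians 6.606 to 6.622, in the rank order of the raw signals on each array). Its scale and centring are not stated, it was used as an alternative only, and limma, with no version, is named in the submitters' processing notes. The main values here were log2 of the deposited processed intensity minus each array's 75th percentile, after averaging spots of a probe and leaving out 98 to 182 outlier spots per array. Between 58.4% and 66.1% of 59305 non-control spots were well above background. Probes well above background on all 4 arrays of a group were kept (33075), the brightest on average standing for its gene. The number of arrays limits the precision.

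A mean per group was fitted to all 16 arrays with limma 3.58.1 (R 4.3.3, 12 residual degrees of freedom) and p-values were adjusted by Benjamini and Hochberg over 23123 genes. The scripts were tested on simulated data. The 33 genes and the other lists were chosen with earlier results of these data known. Named were each called gene, the smallest p per role and comparison, and array values for the 3 smallest p of the averaged differences. A few further genes chosen after their values were seen are named too, such as Hadha, Crat and Oxct1 with their array values. No genome sequence was used.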

Additional observations from a re-analysis of the deposited data

Results flagged for a closer look

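In groups of 4 arrays, the highest or lowest array was far from the others (a gap above Dixon's 95% critical value) in 18 of 132 gene and group combinations, where chance flags about 1 in 20 groups. Young deficient array 1 accounts for 8 of the 18. It was highest for Acadvl (4.82, next 4.23), Hadha (1.33, next 0.24), Etfb (5.17, next 4.62), Acaa1a (5.37, next 5.20) and Crat (-2.14, next -2.82), and lowest for Etfdh (1.44, next 2.11), Acsl1 (1.93, next 2.77) and Acsl3 (1.04, next 1.84). Young wild-type array 4 was lowest for Echs1 (2.60, next 2.93), Etfa (3.03, next 3.20) and Ehhadh (-2.55, next -2.39), and young wild-type array 2 for Decr1 (2.77, next 3.0). In old wild type, array 1 was highest for Oxct1 (5.26, next 5.14) and array 2 for Acads (-2.01, next -2.18). In old deficient brains array 2 was lowest for Acaa1a (5.07, next 5.25) and Acsl6 (2.66, next 2.77), array 1 for Decr1 (2.95, next 3.03) and array 4 for Acsl4 (3.04, next 3.19).

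Bdh2 read in opposite directions between genotypes at the 2 ages, with no overlap of arrays at either, and the interaction was 0.88 (limma's adjusted p = 0.13). Neither genotype difference was called. The groups compared lay in different slide rows, so these differences and the row cannot be told apart.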

How the results depend on the processing

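None of 34 single differences, those called or with an unadjusted p under 0.05, changed sign in any setting counted for it. They were picked for a small p in these same data, so a stable sign was likely beforehand. For those not called, leaving out single arrays was not among the settings counted. Other differences of the 33 genes changed sign without young deficient array 1 or with the G+C correction, such as those of Crat, Acaa1a and Acaa2. Counts of the 33 genes past the threshold moved as follows, in the order genotype at 4 months, genotype at 18 months, age in wild type, age in deficient mice, interaction, averaged genotype and averaged age (0, 0, 0, 1, 0, 0 and 1 as reported). With array weights they were 6, 1, 1, 4, 1, 2 and 2, where the weight was 9.68 for young wild-type array 3 and 0.0964 for young deficient array 1. For age in deficient mice the count was 2 with the deposited value table (Bdh2 and Ppara), 2 with the correction for probe G+C content (Bdh2 and Oxct1), and 0 with no filter on dim probes or with only the groups compared. For the interaction it was 1 with the G+C correction. For averaged age it was 0 with normexp, with no filter and with the mean of a gene's probes. Leaving out 1 array gave 0 to 1 for age in deficient mice and for averaged age, and 0 to 0 elsewhere.

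Counts over all genes moved more. With no filter on dim probes 359 genes for genotype at 4 months became 144, 340 at 18 months 226, 552 for age in deficient mice 225, 44 for the interaction 22, 733 for averaged genotype 455 and 373 for averaged age 215. With only the groups compared the counts were 75 for genotype at 4 months, 65 for age in wild type (98 as reported) and 119 for age in deficient mice. Normexp gave 57 for age in wild type, 361 in deficient mice, 29 for the interaction and 246 for averaged age, and slide as a block gave 237 for the last. Array weights gave 4068, 706, 776, 3077, 822, 2435 and 2486 in the order above, and the G+C correction 810, 555, 153, 1214, 85, 1235 and 733. Leaving out 1 array gave 109 to 414, 179 to 521, 61 to 131, 157 to 653, 21 to 66, 501 to 947 and 194 to 451.

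With the replicate block 199 genes were called for genotype at 4 months, 284 for age in deficient mice and 25 for the interaction. Of the 33 genes 0 were called for age in deficient mice (Bdh2, adjusted p = 0.071) and 0 for averaged age (Ppara, adjusted p = 0.090). Arrays with the same number in different groups had a mean correlation of deviations of -0.018 over 24 pairs, those with different numbers 0.0084 over 72. Of 16 arrays 4 correlated best with their own number, so no pairing by number was seen. The number is also the column of the array on its slide. A pairing and a column effect cannot be told apart, and these correlations cannot exclude either.

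The G+C correction and the omission of 3 arrays were chosen after the data had been seen. Where a count moved, the cause was not tested. Differences of the size of 1 SE (0.076 to 0.24 between 2 groups of 4 arrays over the 33 genes) could not be called. Some of several SE were not called either. Without young deficient array 1 the Bdh2 interaction was 0.77 ± 0.18 (limma's adjusted p = 0.135). A difference that was not called is therefore not shown to be absent. Every probe of the 33 genes was well above background on all 16 arrays.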
